A study of Homo sapiens with 12 samples.

Results

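Genes for 43 chromatin regulators, of 39368 gene symbols counted, were followed in HNSCC cells with inducible silencing of MUC1. They were chosen by name, as subunits of the Polycomb, BAF, DNA methylation and HDAC machinery that have been linked to MUC1-C. The list holds 7 genes of Polycomb repressive complex PRC2, 7 of PRC1, 16 of the BAF and PBAF remodelling complexes, 6 for DNA methylation, 3 HDACs, and 4 histone lysine demethylases and methyltransferases.

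Both lines, CAL27 and HSC3, come from squamous carcinoma of the oral cavity and are HPV-negative. Each line carried tet-MUC1shRNA, an shRNA against MUC1 in a pLKO-tet-puro vector that is switched on by doxycycline (DOX). In both lines 3 cultures received vehicle (0.1% DMSO) and 3 received DOX at 500 ng/mL, for 7 days, which gave 12 RNA-seq libraries in 4 groups. All 4 groups carry the vector, and no DOX-treated control-shRNA library was analysed here, so responses to DOX itself and to MUC1 silencing cannot be told apart. The labels do not say more of how the 3 cultures of a group were separated, and the p values measure the spread between these libraries.

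Polycomb complexes keep genes silent through histone marks. PRC2 methylates lysine 27 of histone H3 through EZH1 or EZH2, and PRC1 ubiquitinates histone H2A through RING1 or RNF2 and reads the PRC2 mark through its CBX subunits. BAF and PBAF use the ATPase SMARCA4 or SMARCA2 to move nucleosomes, and are assembled from alternative subunits. DNMT1 copies CpG methylation onto newly replicated DNA with the help of UHRF1, DNMT3A and DNMT3B add new methylation, TET enzymes oxidise it, and HDACs remove acetyl groups from histones.

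The DOX response was checked first on the silenced gene. MUC1 was at 63.9, 58.9 and 59.9 CPM (counts scaled to a common total by the TMM method within a line) in the CAL27 vehicle libraries and at 3.19, 3.06 and 3.58 CPM with DOX (log2 fold change -4.21, SE 0.067, adjusted p = 1.6e-19). In HSC3 cells it was at 1.51, 1.78 and 1.5 CPM in the vehicle and 0.279, 0.244 and 0.120 CPM in the DOX libraries (log2 fold change -2.88, SE 0.38, adjusted p = 2.0e-04). All DOX libraries of both lines lay below all vehicle libraries of the same line, and vehicle HSC3 cells held less MUC1 RNA than vehicle CAL27 cells (log2 difference -4.98, SE 0.15, adjusted p = 1.7e-13).

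Library totals ran from 89730914 to 169065103 counts. HSC3 DOX replicate 1 stood apart from the other libraries of its group, with a chi-square per degree of freedom, over all counts, of 132 and 85.4 against them, compared with 22.0 between the other two and 7.27 to 28.8 within the other groups. Squamous markers were present in both lines (KRT5 at 4024 to 4142 CPM in vehicle CAL27 and 2518 to 2798 CPM in vehicle HSC3 cells), and with DOX 5 of 8 were lower in each line, among them KRT5 itself, and EPCAM was higher in each. Summed over the 8 markers, levels ran from 6763 to 6950.1 CPM with vehicle and from 3378 to 3579.8 CPM with DOX in CAL27 cells, and from 5463 to 6021 and from 2556 to 3026 CPM in HSC3 cells. Markers of leukocytes, endothelium and fibroblasts summed to at most 13.9 CPM in any library, most of it COL1A1, and 4 of the 9 were at 0 in every HSC3 vehicle library and 6 in every HSC3 DOX library. All 43 genes passed the filter on low counts, and the lowest count of any of them in any library was 166.

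With DOX, 15 of the 43 genes rose and 6 fell in CAL27 cells, and 22 were not called. A call is an adjusted p under 0.05 by edgeR over all genes tested. In the background, 44.5% of the 19239 genes tested in CAL27 cells were called, with 22.6% higher and 21.8% lower, so a call by itself was common. In HSC3 cells 11 rose, 9 fell and 23 were not called, against a background of 28.4% called, 13.0% higher and 15.4% lower, of 18021 genes. Most of these changes were small. The median log2 fold change of the 43 was 0.07 in CAL27 and -0.01 in HSC3 cells, against -0.01 in both lines for all genes tested, and DNMT3A in CAL27 cells was the 1 call over 2-fold (of all genes, 1.31% were called over 2-fold higher and 5.11% lower in CAL27, and 1.58% and 4.40% in HSC3 cells). DOX and vehicle libraries did not overlap for 26 of the 43 genes in CAL27 (52.4% of all genes tested) and for 23 in HSC3 cells (42.6%). Without HSC3 DOX replicate 1, 15 of the 43 were called higher and 11 lower in HSC3 cells. The higher calls of that line dropped to 4 without DOX replicate 3, vehicle replicate 1 or vehicle replicate 2. They dropped to 5 without vehicle replicate 3. With 1 fit of all 12 libraries, 9 were called higher and 2 lower in CAL27 cells. That fit ended the calls of ACTL6A, ARID2, CBX2, CBX8, EED, KDM6A, PBRM1, SMARCA4, SMARCB1, TET2 and TET3, and KMT2A was called higher.

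**Figure D1:**
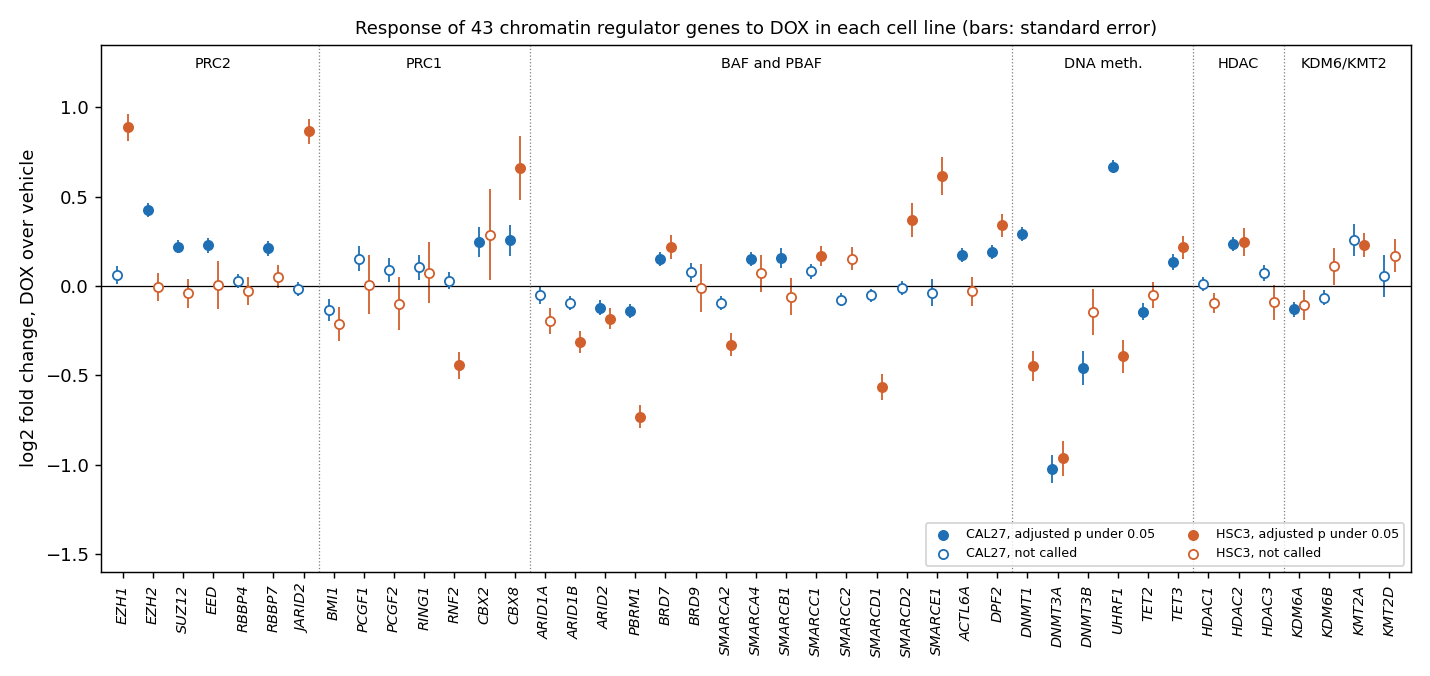
Log2 fold change of each of the 43 genes (DOX over vehicle, y axis) in CAL27 (blue) and HSC3 (orange) cells, grouped by complex, with bars for the standard error (n = 3 libraries per group), filled points for adjusted p under 0.05 and open points for genes not called. DNMT3A lies near -1 in both lines, UHRF1 and DNMT1 lie on opposite sides of 0, and EZH1 and JARID2 lie well above 0 in HSC3 cells and near 0 in CAL27 cells.

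DNMT3A had the largest change of the 43 genes in each line, a fall to about the same share of its vehicle level. Of the 6 DNA methylation genes, 6 were called in CAL27 cells (3 higher, 3 lower) and 4 in HSC3 cells (1 higher, 3 lower). Of all genes tested, 44.5% were called in CAL27 and 28.4% in HSC3 cells. DNMT3A (chr2:25227855-25342590, minus strand, GRCh38), the main de novo methyltransferase of adult tissues, was at 13.3, 15.0 and 13.4 CPM in the CAL27 vehicle libraries and at 7.16, 6.31 and 6.98 CPM with DOX. In HSC3 cells it was at 26.3, 26.8 and 23.2 CPM in the vehicle and 12.2, 13.8 and 13.1 CPM in the DOX libraries. Every DOX library lay below every vehicle library of its line. DNMT3A fell to 0.491 of its vehicle level in CAL27 (log2 fold change -1.03, SE 0.079, adjusted p = 1.9e-09) and to 0.512 in HSC3 cells (log2 fold change -0.96, SE 0.099, adjusted p = 3.7e-05), and the test of the difference between the lines did not pass the threshold (log2 difference 0.06, SE 0.13, adjusted p = 0.81). In these bulk libraries, fewer cells with the RNA and less RNA per cell cannot be told apart.

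DNMT3B, the second de novo enzyme, fell in CAL27 cells, from 8.78, 9.78 and 9.46 CPM in the vehicle to 5.93, 6.62 and 7.77 CPM in the DOX libraries (log2 fold change -0.46, SE 0.095, adjusted p = 4.7e-04). In HSC3 cells its vehicle libraries (13.1, 11.2 and 10.3 CPM) and DOX libraries (9.62, 10.1 and 11.5 CPM) overlapped and the change was not called (log2 fold change -0.15, SE 0.13, adjusted p = 0.46). The TET genes, whose enzymes start the removal of methylation, moved little. TET3 rose in both lines, with a log2 fold change of 0.14 (adjusted p = 0.022) in CAL27 and 0.22 (adjusted p = 0.030) in HSC3 cells. TET2 fell in CAL27 cells, by a log2 fold change of -0.14 (adjusted p = 0.019), and was at -0.05 (adjusted p = 0.67) in HSC3 cells. These TET calls were small and lost without single libraries. For TET3 this was in CAL27 without vehicle replicate 1, vehicle replicate 2, vehicle replicate 3, DOX replicate b or DOX replicate c (adjusted p from 0.071 to 0.13), and in HSC3 without vehicle replicate 1, vehicle replicate 2, vehicle replicate 3, DOX replicate 2 or DOX replicate 3 (adjusted p from 0.061 to 0.13). For TET2 it was without DOX replicate a or DOX replicate b (adjusted p from 0.066 to 0.11). With library totals the TET3 call in HSC3 cells ended (adjusted p = 0.056).

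The maintenance pair went in opposite directions in the 2 lines. UHRF1 (chr19:4903080-4962154, plus strand), which brings DNMT1 to hemimethylated DNA, was at 126, 127 and 122 CPM in the vehicle and 195, 203 and 197 CPM in the DOX libraries of CAL27 cells. The HSC3 values were 64.8, 61.5 and 52.2 CPM in the vehicle and 42.9, 48.9 and 43.9 CPM in the DOX libraries. The groups of each line did not overlap, and the DOX libraries lay above vehicle in CAL27 and below it in HSC3 cells. UHRF1 rose in CAL27 (log2 fold change 0.67, SE 0.037, adjusted p = 1.4e-11) and fell in HSC3 cells (log2 fold change -0.39, SE 0.094, adjusted p = 0.0089), and the responses differed between the lines (log2 difference -1.06, SE 0.10, adjusted p = 3.6e-06). Without HSC3 vehicle replicate 1 the HSC3 call was lost (adjusted p = 0.060), while without HSC3 DOX replicate 1 the log2 fold change was -0.36.

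DNMT1 (chr19:10133342-10231286, minus strand) was at 278, 288 and 278 CPM in the vehicle and 331, 347 and 354 CPM in the DOX libraries of CAL27 cells. The HSC3 values were 322, 316 and 286 CPM in the vehicle and 197, 246 and 234 CPM in the DOX libraries. As for UHRF1, the groups did not overlap in either line and the direction was opposite. DNMT1 rose in CAL27 (log2 fold change 0.29, SE 0.039, adjusted p = 3.5e-06) and fell in HSC3 cells (log2 fold change -0.45, SE 0.085, adjusted p = 0.0023), and the responses differed (log2 difference -0.74, SE 0.096, adjusted p = 6.2e-05). Without HSC3 DOX replicate 1, the lowest of the 3, the HSC3 log2 fold change was -0.36. DNMT1 and UHRF1 were the 2 of 43 genes called higher in CAL27 and lower in HSC3 cells, a pattern held by 2.37% of the 17164 genes tested in both lines.

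Both genes are transcribed with DNA replication in many cell types, and a list of 29 replication genes (MCM, GINS and RFC subunits, PCNA, RRM1, RRM2 and others) moved the same way. In CAL27 cells 25 of the 29 were higher with DOX and 0 lower (median log2 fold change 0.30), against 22.6% and 21.8% of all genes tested. Of the same 29, 22 were lower and 0 higher in HSC3 cells (median -0.41), against 15.4% and 13.0% of all genes tested. The response was called lower in HSC3 than in CAL27 cells for 28 of the 29, against 12.3% of all genes tested. Their summed level ran from 3100.5 to 3249.8 CPM with vehicle and from 3937 to 3985 CPM with DOX in CAL27 cells, and from 2402 to 2453 and from 1874 to 1933 CPM in HSC3 cells. The part of this shift in the DNMT1 and UHRF1 results was not tested.

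Promoter stretches of UHRF1, DNMT1, EZH2 and EZH1 are shown because each holds the letters of the E2F motif, the binding site of the factors that switch on replication genes. Stretches of 150 bases, from 120 before to 30 after a start site in RefSeq (GRCh38.p14), are printed 5' to 3' on the gene's own strand with the motif in capitals on whichever strand it lay. UHRF1 is at chr19:4909381-4909530, plus strand, and DNMT1 at chr19:10194924-10195073, minus strand. EZH2, which has another start in RefSeq too, is shown at chr7:148884262-148884411, minus strand, and EZH1 at chr17:42745011-42745160, minus strand.
UHRF1: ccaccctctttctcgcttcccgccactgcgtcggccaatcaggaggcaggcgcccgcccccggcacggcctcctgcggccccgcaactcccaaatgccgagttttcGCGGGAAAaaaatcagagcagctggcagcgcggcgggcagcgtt
DNMT1: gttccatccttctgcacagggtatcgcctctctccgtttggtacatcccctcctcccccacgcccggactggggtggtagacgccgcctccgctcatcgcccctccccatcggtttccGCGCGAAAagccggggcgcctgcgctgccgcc
EZH2: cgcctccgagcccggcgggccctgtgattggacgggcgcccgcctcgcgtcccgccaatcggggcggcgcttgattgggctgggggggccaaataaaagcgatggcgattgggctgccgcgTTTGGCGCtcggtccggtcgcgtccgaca
EZH1: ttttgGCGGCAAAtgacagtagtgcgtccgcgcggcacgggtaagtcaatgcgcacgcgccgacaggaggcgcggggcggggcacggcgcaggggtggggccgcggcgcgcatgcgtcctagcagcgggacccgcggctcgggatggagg

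The letters searched for E2F were TTTCCCGC, TTTCGCGC, TTTGCCGC and TTTGGCGC, on both strands, in windows from 250 bases before to 50 after each start. Of the 43 genes, 37 had a promoter in the RefSeq table (ACTL6A, ARID2, CBX2, CBX8, SMARCC1 and SMARCC2 had none). The motif was found for 6 of the 37 (16.2%), namely BRD7, DNMT1, EZH1, EZH2, SUZ12 and UHRF1, against 3.99% of the 27305 genes with a promoter and 14 of 25 replication genes. Of these 6, DNMT1, UHRF1, EZH2, SUZ12 and BRD7 rose in CAL27 cells and EZH1 was not called, while in HSC3 cells DNMT1 and UHRF1 fell, EZH1 and BRD7 rose, and EZH2 and SUZ12 were not called. E2F was 1 of 3 motifs searched, and the other two are not reported here. A match is a run of letters and no evidence of binding.

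**Figure D2:**
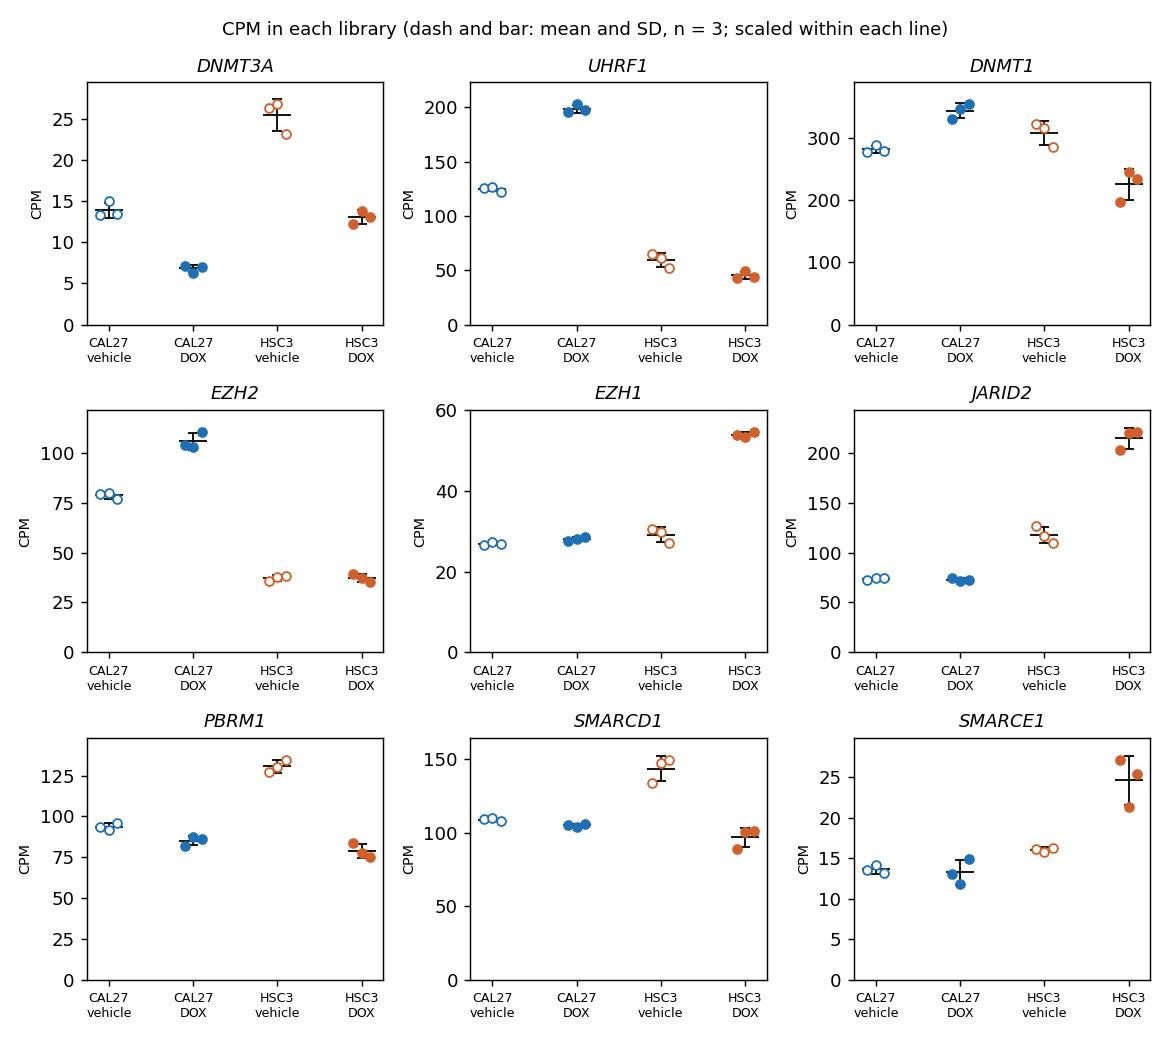
CPM of 9 genes in each of the 12 libraries (open points vehicle, filled points DOX; dash and bar, mean and SD, n = 3; TMM scaling within each line, linear y axis from 0). DNMT3A is lower with DOX in both lines, UHRF1 and DNMT1 are higher with DOX in CAL27 and lower in HSC3 cells, and EZH1, JARID2 and SMARCE1 are higher with DOX in HSC3 cells.

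For PRC2, the core subunits rose modestly in CAL27 cells, while the change in HSC3 was in EZH1 and the accessory subunit JARID2. In CAL27 cells 4 of 7 genes rose and 0 fell, namely the methyltransferase EZH2, the scaffold SUZ12, the reader of the mark EED and the histone chaperone RBBP7, with log2 fold changes from 0.21 to 0.43. Of all genes tested in CAL27 cells, 22.6% rose and 21.8% fell. EZH2 was at 79.4, 80.1 and 76.7 CPM in the vehicle and 104, 103 and 111 CPM in the DOX libraries of CAL27 cells (log2 fold change 0.43, SE 0.041, adjusted p = 4.6e-08). In HSC3 cells its groups overlapped, at 35.6, 37.9 and 38.3 CPM in the vehicle and 39.1, 37.1 and 35.3 CPM in the DOX libraries (log2 fold change 0.00, SE 0.078, adjusted p = 0.98). The EED call in CAL27 cells ended in 1 fit of all 12 libraries (adjusted p = 0.14). The EZH2 response differed between the lines (log2 difference -0.43, SE 0.082, adjusted p = 0.0015), while the differences of SUZ12, EED and RBBP7 did not pass the threshold (log2 difference -0.26, -0.22 and -0.16, adjusted p = 0.068, 0.37 and 0.21). Without HSC3 DOX replicate 1 the difference was called for SUZ12, at -0.34 (adjusted p = 2.1e-04), and for EED, at -0.36 (adjusted p = 0.011). SUZ12 was then called lower in HSC3 cells, at -0.14 (adjusted p = 0.048). With library totals the SUZ12 difference was also called, at -0.27 (adjusted p = 0.028). RBBP4, the paralog of RBBP7, was at 0.03 (adjusted p = 0.59) in CAL27 and -0.03 (adjusted p = 0.84) in HSC3 cells. Of the RBBP4 exon bases, 22.8% lie opposite the gene SYNC on the other strand.

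EZH1 (chr17:42700275-42745049, minus strand), the PRC2 enzyme of cells that divide little, was at 30.5, 29.9 and 27.2 CPM in the vehicle and 54.0, 53.4 and 54.7 CPM in the DOX libraries of HSC3 cells, with no overlap (log2 fold change 0.89, SE 0.076, adjusted p = 1.1e-05). In CAL27 cells it was at 26.6, 27.3 and 26.9 CPM in the vehicle and 27.5, 28.1 and 28.6 CPM in the DOX libraries, and the change was not called (log2 fold change 0.06, SE 0.050, adjusted p = 0.36). The difference between the lines was 0.83 on the log2 scale (SE 0.084, adjusted p = 6.3e-06).

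JARID2 (chr6:15246069-15522042, plus strand), which helps PRC2 to reach its targets, showed a change of similar size. It was at 126, 117 and 109.9 CPM in the vehicle and 203, 219.6 and 221 CPM in the DOX libraries of HSC3 cells (log2 fold change 0.87, SE 0.070, adjusted p = 6.6e-06). The CAL27 groups overlapped, at 72.0, 74.1 and 74.6 CPM in the vehicle and 74.6, 71.0 and 72.5 CPM in the DOX libraries (log2 fold change -0.02, SE 0.040, adjusted p = 0.78), and the lines differed (log2 difference 0.88, SE 0.079, adjusted p = 2.1e-06). Both genes kept these HSC3 calls and differences with each library left out in turn, with HSC3 log2 fold changes from 0.84 to 0.92 for EZH1 and from 0.82 to 0.92 for JARID2 over all settings tried.

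In PRC1, CBX8 was the gene called in both lines. CBX8, a reader of the PRC2 mark, was at 7.13, 6.45 and 7.07 CPM in the vehicle and 7.95, 8.77 and 7.93 CPM in the DOX libraries of CAL27 cells (log2 fold change 0.25, SE 0.084, adjusted p = 0.019). In HSC3 cells it was at 2.02, 1.99 and 2.16 CPM in the vehicle and 2.91, 3.38 and 3.49 CPM in the DOX libraries (log2 fold change 0.66, SE 0.18, adjusted p = 0.017). The groups did not overlap in either line, but levels were low and both calls were lost without some single libraries. For CAL27 this was without vehicle replicate 2 or DOX replicate b (adjusted p from 0.10 to 0.13), and for HSC3 without vehicle replicate 1, vehicle replicate 2 or DOX replicate 3 (adjusted p from 0.061 to 0.074). CBX2, its close relative, rose in CAL27 cells (log2 fold change 0.24, adjusted p = 0.024) and was at 0.29 (adjusted p = 0.47) in HSC3 cells. The CBX2 call in CAL27 cells was lost without vehicle replicate 1, vehicle replicate 2, vehicle replicate 3 or DOX replicate c (adjusted p from 0.079 to 0.15). The CBX8 difference between the lines was called without HSC3 DOX replicate 1, at 0.49 (adjusted p = 0.031).

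RNF2, the main H2A ubiquitin ligase, fell in HSC3 cells, from 85.5, 78.6 and 83.3 CPM in the vehicle to 65.3, 56.0 and 60.6 CPM in the DOX libraries, with no overlap (log2 fold change -0.44, SE 0.075, adjusted p = 0.0012). In CAL27 cells it was at 57.8, 54.5 and 55.1 CPM in the vehicle and 59.7, 54.8 and 56.5 CPM in the DOX libraries (log2 fold change 0.03, SE 0.045, adjusted p = 0.64), and the lines differed (log2 difference -0.47, SE 0.094, adjusted p = 0.0019). RING1, the alternative ligase, was at 0.10 (adjusted p = 0.25) in CAL27 and 0.07 (adjusted p = 0.81) in HSC3 cells. The PCGF subunits, which set the kind of PRC1, were not called in either line. BMI1 (PCGF4), long linked to self-renewal, was at -0.14 (adjusted p = 0.077) and -0.21 (adjusted p = 0.12), PCGF1 at 0.15 (adjusted p = 0.090) and 0.01 (adjusted p = 0.98), and PCGF2 at 0.09 (adjusted p = 0.33) and -0.10 (adjusted p = 0.69). BMI1 was called lower in HSC3 cells without HSC3 DOX replicate 1, at -0.32 (adjusted p = 6.8e-04). PCGF2 shares 61.5% of its exon bases with genes on the other strand, and the strand setting of the counting is not stated, so its value is uncertain. BMI1 shares 22.8% with the readthrough gene COMMD3-BMI1.

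Of the 16 BAF and PBAF genes, 5 rose and 2 fell in CAL27 cells (22.6% and 21.8% of all genes tested). These changes were all at most 0.19 in log2 size. In HSC3 cells 5 rose and 5 fell (13.0% and 15.4% of all genes tested) over a wider range, from -0.73 to 0.62. PBRM1 (chr3:52545352-52685917, minus strand), the bromodomain subunit that defines PBAF, was at 127, 130.4 and 135 CPM in the vehicle and 83.5, 77.5 and 75.4 CPM in the DOX libraries of HSC3 cells (log2 fold change -0.73, SE 0.065, adjusted p = 1.3e-05). In CAL27 cells it was at 93.8, 91.9 and 95.8 CPM in the vehicle and 82.2, 87.2 and 86.1 CPM in the DOX libraries (log2 fold change -0.14, SE 0.040, adjusted p = 0.0074). The CAL27 call ended in 1 fit of all 12 libraries (adjusted p = 0.077). Groups did not overlap in either line, and the fall was larger in HSC3 cells (log2 difference -0.59, SE 0.075, adjusted p = 5.0e-05). ARID2, the other PBAF-defining subunit, fell slightly in both lines, at -0.12 (adjusted p = 0.030) in CAL27 and -0.18 (adjusted p = 0.041) in HSC3 cells. BRD7, the third PBAF subunit, rose in both, at 0.15 (adjusted p = 0.0039) and 0.22 (adjusted p = 0.028), though 41.9% of its exon bases lie opposite ADCY7 and another gene. Several of these calls were lost with a library left out, which also left fewer libraries for the test. The ARID2 call was lost for CAL27 without vehicle replicate 2, vehicle replicate 3, DOX replicate a or DOX replicate b (adjusted p from 0.061 to 0.16), and for HSC3 without vehicle replicate 1, vehicle replicate 2, vehicle replicate 3, DOX replicate 2 or DOX replicate 3 (adjusted p from 0.11 to 0.14). The HSC3 call also ended with DESeq2's size factors or no filter on low counts (adjusted p = 0.077 and 0.074). The BRD7 call in HSC3 cells was lost without vehicle replicate 1, vehicle replicate 2, vehicle replicate 3 or DOX replicate 3 (adjusted p from 0.059 to 0.13).

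SMARCD1 and SMARCD2, which are alternative occupants of 1 position in the complex, went in opposite directions in HSC3 cells. SMARCD1 was at 134, 147 and 149.6 CPM in the vehicle and 89.2, 100.1 and 101 CPM in the DOX libraries (log2 fold change -0.57, SE 0.073, adjusted p = 1.8e-04). SMARCD2 was at 50, 50.7 and 48.9 CPM in the vehicle and 54.2, 68.8 and 70.2 CPM in the DOX libraries (log2 fold change 0.37, SE 0.097, adjusted p = 0.015). Neither gene overlapped between its groups, and the SMARCD2 value was lowest in HSC3 DOX replicate 1, without which its log2 fold change was 0.48. The SMARCD2 call in HSC3 cells was lost without vehicle replicate 1, vehicle replicate 2, vehicle replicate 3 or DOX replicate 3 (adjusted p from 0.055 to 0.076), and its difference between the lines without HSC3 DOX replicate 3 (adjusted p = 0.053). In CAL27 cells SMARCD1 was at -0.05 (adjusted p = 0.29) and SMARCD2 at -0.01 (adjusted p = 0.81). The lines differed for both (SMARCD1 -0.51, SE 0.080, adjusted p = 2.8e-04; SMARCD2 0.38, SE 0.11, adjusted p = 0.018).

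SMARCE1, a DNA-binding core subunit, was at 16.2, 15.8 and 16.3 CPM in the vehicle and 27.2, 21.3 and 25.3 CPM in the DOX libraries of HSC3 cells, with no overlap (log2 fold change 0.62, SE 0.10, adjusted p = 0.0012). In CAL27 cells the groups overlapped, at 13.5, 14.2 and 13.2 CPM in the vehicle and 13.1, 11.8 and 14.9 CPM in the DOX libraries (log2 fold change -0.04, SE 0.078, adjusted p = 0.74), and the lines differed (log2 difference 0.66, SE 0.14, adjusted p = 0.0038). Its level per length was low for a core subunit, at 2.65 RPKM in vehicle CAL27 cells against 13.1 for SMARCB1 and 23.8 for SMARCC1, and 18.9% of its exon bases are shared with another gene on the same strand, so its count is uncertain. DPF2, a histone reader of the complex, rose in both lines, though 13.5% of its exon bases lie opposite another gene. It was at 133, 125 and 128 CPM in the vehicle and 151, 143 and 147 CPM in the DOX libraries in CAL27 (log2 fold change 0.19, SE 0.039, adjusted p = 4.4e-04) and at 94.9, 91.5 and 85.1 CPM in the vehicle and 113, 114 and 117 CPM in the DOX libraries of HSC3 cells (log2 fold change 0.34, SE 0.064, adjusted p = 0.0024). The groups did not overlap in either line.

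Of the ATPases, SMARCA4 rose in CAL27 cells (log2 fold change 0.15, adjusted p = 0.0029) and was at 0.07 (adjusted p = 0.69) in HSC3 cells. SMARCA2, the alternative ATPase, was at -0.10 (adjusted p = 0.068) in CAL27 and fell in HSC3 cells (log2 fold change -0.33, adjusted p = 0.0032). Of the ARID1 subunits, which mark canonical BAF and are often mutated in cancer, ARID1B fell in HSC3 cells (log2 fold change -0.31, adjusted p = 0.0029) and was at -0.09 (adjusted p = 0.061) in CAL27 cells, and ARID1A was at -0.05 (adjusted p = 0.48) and -0.20 (adjusted p = 0.071). The core scaffold SMARCC1 was at 0.08 (adjusted p = 0.12) in CAL27 and rose in HSC3 cells (log2 fold change 0.17, adjusted p = 0.045), and its partner SMARCC2 was at -0.08 (adjusted p = 0.089) and 0.15 (adjusted p = 0.10). The core subunit SMARCB1 and the actin-like ACTL6A rose in CAL27 cells (log2 fold changes 0.16, adjusted p = 0.028, and 0.17, adjusted p = 0.0017) and were at -0.06 (adjusted p = 0.73) and -0.03 (adjusted p = 0.84) in HSC3 cells. Of the SMARCB1 exon bases, 17.7% lie opposite DERL3. BRD9, which defines the non-canonical BAF complex, was at 0.08 (adjusted p = 0.28) and -0.01 (adjusted p = 0.96). The SMARCA4 and ACTL6A calls in CAL27 cells ended in 1 fit of all 12 libraries (adjusted p = 0.23 and 0.090). Without HSC3 DOX replicate 1, SMARCA4, at 0.19 (adjusted p = 0.013), and SMARCC2, at 0.19 (adjusted p = 0.0044), were called higher in HSC3 cells. The difference between the lines was then called for ACTL6A, at -0.28 (adjusted p = 0.0031). The SMARCB1 call in CAL27 cells was lost without vehicle replicate 1, vehicle replicate 3, DOX replicate a or DOX replicate b (adjusted p from 0.10 to 0.14), and the SMARCC1 call in HSC3 cells without vehicle replicate 1, vehicle replicate 2, vehicle replicate 3, DOX replicate 2 or DOX replicate 3 (adjusted p from 0.073 to 0.14). With DESeq2's size factors, library totals or no filter on low counts the SMARCC1 call also ended (adjusted p = 0.052, 0.061 and 0.095).

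Among the HDACs, HDAC2 rose in both lines and the other two were not called. HDAC2 was at 152, 144 and 149 CPM in the vehicle and 180.1, 174 and 170.1 CPM in the DOX libraries of CAL27 cells (log2 fold change 0.24, SE 0.039, adjusted p = 4.2e-05). The HSC3 values were 110.2, 110.2 and 109 CPM in the vehicle and 146, 120.5 and 124 CPM in the DOX libraries (log2 fold change 0.25, SE 0.077, adjusted p = 0.035), where HDAC2 was highest in DOX replicate 1, and without that library its log2 fold change was 0.15. The HSC3 call was lost without vehicle replicate 1, vehicle replicate 2, vehicle replicate 3 or DOX replicate 3 (adjusted p from 0.054 to 0.11). The groups did not overlap in either line. HDAC1, which shares its complexes with HDAC2, was at 0.01 (adjusted p = 0.83) in CAL27 and -0.10 (adjusted p = 0.24) in HSC3 cells, and HDAC3, the enzyme of the NCOR complexes, at 0.07 (adjusted p = 0.20) and -0.09 (adjusted p = 0.56). HDAC1 had the highest level per length of the 43 genes, at 126 RPKM in vehicle CAL27 and 113 RPKM in vehicle HSC3 cells, against 1.47 and 2.7 RPKM for DNMT3A.

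Among the histone demethylases and methyltransferases, 1 of 4 was called in each line, against 44.5% of all genes tested in CAL27 and 28.4% in HSC3 cells. KDM6A, a demethylase of the PRC2 mark, fell in CAL27 cells (log2 fold change -0.13, adjusted p = 0.016) and was at -0.11 (adjusted p = 0.41) in HSC3 cells, and KDM6B, the inducible demethylase, was at -0.07 (adjusted p = 0.23) and 0.11 (adjusted p = 0.49). KMT2A, a methyltransferase for lysine 4 of histone H3, was at 0.26 (adjusted p = 0.057) in CAL27 and rose in HSC3 cells (log2 fold change 0.23, adjusted p = 0.024), and KMT2D, which marks enhancers, was at 0.05 (adjusted p = 0.77) and 0.17 (adjusted p = 0.20). KMT2A shares 18.3% of its exon bases with another gene on the same strand. Without HSC3 DOX replicate 1, KMT2D, at 0.27 (adjusted p = 4.6e-04), and KDM6B, at 0.23 (adjusted p = 0.0029), were called higher in HSC3 cells. The KDM6B difference between the lines was then called, at 0.31 (adjusted p = 0.0013). The KDM6A call was lost without DOX replicate b (adjusted p = 0.095), with the GC content and length offset (adjusted p = 0.088) and in 1 fit of all 12 libraries (adjusted p = 0.17). The KMT2A call was lost without vehicle replicate 1, vehicle replicate 2, vehicle replicate 3, DOX replicate 2 or DOX replicate 3 (adjusted p from 0.050 to 0.12).

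The comparison of the lines asked which responses differed. The fall of MUC1 itself was smaller in HSC3 cells, from the low HSC3 levels given above (log2 difference 1.36, SE 0.25, adjusted p = 0.0010 by the edgeR test of the difference between the lines). Of the 43 genes, 13 differed at an adjusted p under 0.05 in 1 edgeR fit of all 12 libraries, with 5 higher and 8 lower in HSC3 than in CAL27 cells, against 20.6% of the 20694 genes tested (8.25% higher, 12.3% lower). UHRF1 was the 1 difference over 2-fold, against 2.19% of all genes higher and 3.02% lower. Beside the genes above, the response of ARID1B (log2 difference -0.22, adjusted p = 0.029) and SMARCA2 (log2 difference -0.23, adjusted p = 0.047) was lower and that of SMARCC2 (log2 difference 0.23, adjusted p = 0.023) higher in HSC3 cells. The ARID1B difference was lost without 8 of the 12 libraries, 1 at a time (adjusted p from 0.064 to 0.11), the SMARCA2 difference without 11 of them (from 0.051 to 0.17), and the SMARCC2 difference without HSC3 DOX replicate 2 (adjusted p = 0.050). With all 12 libraries kept, the ARID1B and SMARCA2 differences also ended with no filter on low counts. The SMARCA2 difference ended with DESeq2's size factors in edgeR too. Over the 2 lines, 5 genes rose in both (CBX8, BRD7, DPF2, TET3 and HDAC2; 7.82% of all genes tested in both) and 3 fell in both (ARID2, PBRM1 and DNMT3A; 8.62%). There were 12 genes called in neither line, against 43.8% of all genes.

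**Figure D3:**
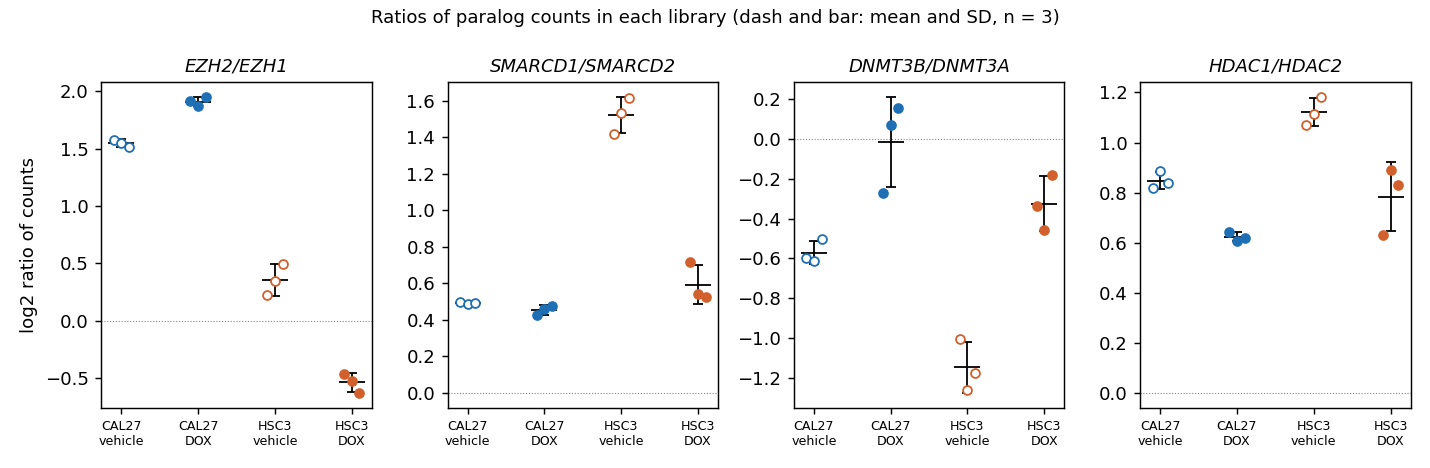
Log2 ratio of counts of 4 pairs of paralogs in each library (open points vehicle, filled points DOX; dash and bar, mean and SD, n = 3; dotted line, equal counts). The EZH2/EZH1 ratio is above its vehicle range with DOX in CAL27 and below 0 with DOX in HSC3 cells, and the HDAC1/HDAC2 ratio is lower with DOX in both lines.

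Ratios of alternative subunits within a library do not depend on how libraries are scaled. The EZH2/EZH1 log2 ratio of counts in the CAL27 libraries was 1.58, 1.55 and 1.51 for vehicle and 1.92, 1.87 and 1.95 for DOX. The HSC3 ratios were 0.22, 0.34 and 0.50 for vehicle and -0.46, -0.53 and -0.63 for DOX. The DOX ratios lay above those of vehicle in CAL27 and below them in HSC3 cells, with no overlap in either line. The SMARCD1/SMARCD2 ratio went from 1.52 ± 0.10 to 0.59 ± 0.11 (SD, n = 3) in HSC3 and from 0.49 ± 0.01 to 0.45 ± 0.03 in CAL27 cells.

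DNMT3B/DNMT3A went from -0.57 ± 0.06 to -0.02 ± 0.23 in CAL27 and from -1.15 ± 0.13 to -0.33 ± 0.14 in HSC3 cells. HDAC1/HDAC2 went from 0.85 ± 0.03 to 0.62 ± 0.02 and from 1.12 ± 0.06 to 0.78 ± 0.14, and TET2/TET3 from -0.79 ± 0.02 to -1.07 ± 0.06 and from -0.61 ± 0.09 to -0.87 ± 0.05. These 5 pairs were the ones whose groups did not overlap in both lines, out of 15 pairs. Counting each line, 16 of 30 ratios did not overlap between DOX and vehicle (11 of 15 in CAL27 and 5 of 15 in HSC3 cells, where 52.4% and 42.6% of single genes did not overlap). Those shares are for scaled levels of single genes, and no share was taken over ratios of other gene pairs. The two-sided exact permutation test of 3 libraries against 3 cannot go below p = 0.10, the value for each of the 16 (0.19 after Benjamini-Hochberg adjustment over the 30), so no ratio passed.

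**Figure D4:**
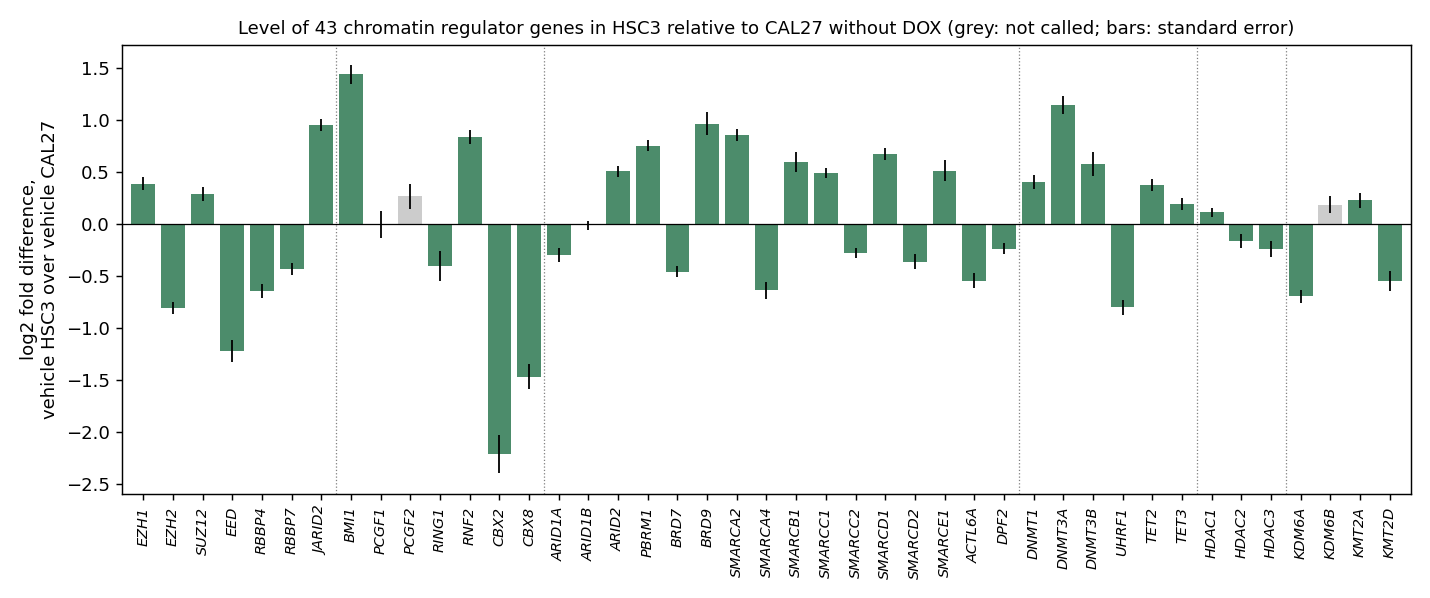
Log2 difference in level of each of the 43 genes between vehicle HSC3 and vehicle CAL27 cells (bars; error bars, standard error; n = 3 libraries per line; green, adjusted p under 0.05; grey, not called). CBX2, CBX8 and EED are lowest and BMI1 and DNMT3A highest in HSC3 relative to CAL27 cells.

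Before silencing, the 2 lines already differed at most of these genes. Of the 43, 20 were higher and 19 lower in vehicle HSC3 than in vehicle CAL27 cells, against 30.6% and 32.3% of all genes tested (62.9% called in all), and the groups did not overlap for 41 (74.3% of all genes). Cell line and any batch between the 2 tables cannot be told apart, and the median of all genes was -0.12 on the log2 scale under TMM and -0.39 when libraries were scaled by their totals. CBX2 was at 9.45, 9.66 and 9.68 CPM in vehicle CAL27 and at 2.64, 2.02 and 1.56 CPM in vehicle HSC3 cells, on the scale common to both lines (log2 difference -2.21, SE 0.18, adjusted p = 3.1e-08). BMI1 went the other way, at 23.4, 20.2 and 21.9 CPM in CAL27 and 58.2, 57.6 and 61.9 CPM in HSC3 cells (log2 difference 1.44, SE 0.090, adjusted p = 1.1e-09). Neither gene overlapped between the lines. The other differences over 2-fold (13.2% of all genes higher, 18.7% lower) were CBX8 (log2 difference -1.46, adjusted p = 2.4e-08), EED (log2 difference -1.22, adjusted p = 7.6e-08) and DNMT3A (log2 difference 1.15, adjusted p = 1.5e-08).

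By complex, PRC2 differed by subunit, with JARID2 (0.95), EZH1 (0.39) and SUZ12 (0.29) higher and EED, EZH2 (-0.80), RBBP4 (-0.64) and RBBP7 (-0.43) lower in vehicle HSC3 cells, of which SUZ12 turned to -0.07 when GC content and length were corrected. SMARCA2 was higher (0.86) and SMARCA4 lower (-0.63) in HSC3 cells. Among the DNA methylation genes 5 of 6 were higher in HSC3 cells and UHRF1 was lower (-0.80), though TET3 (0.20) turned to -0.07 when libraries were scaled by their totals. With that scaling DNMT1 (0.13, adjusted p = 0.14) and TET2 (0.11, adjusted p = 0.13) were not called either, so that DNMT3A and DNMT3B were the 2 called higher. The EZH1 and SUZ12 calls ended too (adjusted p = 0.092 and 0.79). The 4 genes not called were PCGF1, PCGF2, ARID1B and KDM6B, with log2 differences from -0.01 to 0.27.

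Companion subunits and enzymes of the same machinery, 90 genes in 6 lists, were counted beside the 43. In CAL27 cells, where 22.6% of all genes rose and 21.8% fell, 9 of 19 PRC1 companions tested rose and 2 fell, and of 12 BAF companions 5 rose and 4 fell. Of the 25 HDAC companions 5 rose and 8 fell, of 9 for DNA methylation 2 rose and 4 fell, of 5 for PRC2 2 rose and 1 fell, and of 17 for KMT2 and the PRC2 mark 2 rose and 3 fell. In HSC3 cells, where 13.0% of all genes rose and 15.4% fell, the counts were 5 higher and 1 lower of 20 for PRC1, 2 and 1 of 12 for BAF, 7 and 3 of 25 for HDAC, 0 and 4 of 9 for DNA methylation, 1 and 1 of 5 for PRC2, and 1 and 3 of 17 for KMT2 and the mark.

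The companions past 2-fold were all in CAL27 cells. DPF3, a tissue-restricted relative of DPF2, rose in CAL27 cells, where it lay at 0.927 to 0.937 CPM with vehicle and at 2.07 to 2.48 CPM with DOX (log2 fold change 1.33, SE 0.16, adjusted p = 9.7e-07), and in HSC3 cells it was at 8.91 to 10.3 CPM with vehicle and 7.85 to 8.45 CPM with DOX (log2 fold change -0.25, SE 0.12, adjusted p = 0.14). SMARCD3, the third occupant of the SMARCD position, fell there, at 3.37 to 4.04 CPM with vehicle and 1.54 to 1.81 CPM with DOX (log2 fold change -1.13, SE 0.14, adjusted p = 7.9e-07), and so did HDAC11, at 5.35 to 6.23 CPM with vehicle and 2.33 to 3.24 CPM with DOX (log2 fold change -1.05, SE 0.12, adjusted p = 6.2e-07). In HSC3 cells neither SMARCD3 (log2 fold change -0.08, SE 0.34, adjusted p = 0.89) nor HDAC11 (log2 fold change -0.30, SE 0.22, adjusted p = 0.36) was called.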

How the data were processed

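RNA was measured in 12 libraries, 3 for each of vehicle and DOX in each of the 2 tet-MUC1shRNA lines, with 1 table per line. The authors deposited whole-number counts per gene symbol, without normalization, from stranded mRNA libraries. The submitters' processing notes name FastQC 0.11.9, STAR 2.7.9a, featureCounts (Subread 2.0.1) and GRCh38; the study's methods add a release number to that build but name no annotation. The strand setting and the treatment of reads that map to several places are not given in the sources used here. Coordinates, exon overlaps and lengths (Ensembl canonical transcript, for RPKM) come from GENCODE v44 on GRCh38, where 38934 of 39368 symbols matched; counted features may differ. In the CAL27 table the DOX columns carry other numbers than the samples and were mapped to the group only, and are called a, b and c here.

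Each line was fitted alone in R 4.3.3 with edgeR 4.0.16 (TMM, filterByExpr at its defaults, minimum count 10 and minimum total 15, robust glmQLFit and two-sided glmQLFTest), with p values adjusted by Benjamini-Hochberg over every gene tested, and a call at an adjusted p under 0.05. The difference between the lines (interaction) and the vehicle levels came from 1 fit of all 12 libraries. SE is the size of the log2 fold change divided by the square root of F. CPM are counts scaled to a common TMM-corrected total, and the authors' 2-fold rule was an alternative, beside DESeq2 1.42.0, its size factors, library totals, no filter on low counts, an offset for GC content and length, 1 fit of all 12 libraries, the replicate block and leaving out each library. Ratios of paralogs were compared by the exact permutation test. On simulated counts with 200 genes changed by 1.5 on the log2 scale, 100% were recovered in CAL27 (18884 genes), 99% in HSC3 (17243 genes) and 96.5% in the difference (20110 genes), with 14 of 214, 11 of 209 and 4 of 197 calls on unchanged genes. All DOX responses of the 43 genes were smaller than 1.5 in size, so recovery of changes of their size was not tested.

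The 43 genes and all lists were chosen with earlier results of these data known, so a count over them is a description. All 43 genes are named. Library values are given for most genes that were called in both lines, passed 0.58 in log2 size with a call, or differed between the lines. Of these genes, ARID2, BRD7, TET3, ARID1B, SMARCA2 and SMARCC2 have log2 values and adjusted p only. SMARCD1 and SMARCD2 have library values for HSC3 cells only. DNMT3B, outside this rule, has them for both lines. Of the companions, genes called with a change over 2-fold are named, at most 3 in each direction per line. Several counts may stand for 1 molecule, since odd numbers made up 22.1% to 35.7% of the counts from 1 to 19.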

Additional observations from a re-analysis of the deposited data

Results flagged for a closer look

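The response to DOX differed between the lines for 13 of the 43 genes by the interaction test, an adjusted p under 0.05 in edgeR. Values are the HSC3 minus the CAL27 log2 fold change. It was higher in HSC3 cells for JARID2 (0.88), EZH1 (0.83), SMARCE1 (0.66), SMARCD2 (0.38) and SMARCC2 (0.23). It was lower in HSC3 cells for UHRF1 (-1.06), DNMT1 (-0.74), PBRM1 (-0.59), SMARCD1 (-0.51), RNF2 (-0.47), EZH2 (-0.43), SMARCA2 (-0.23) and ARID1B (-0.22). UHRF1 was the only one of the 13 past 2-fold. The 9 that kept their call under every other setting than the 2-fold rule were DNMT1, EZH1, EZH2, JARID2, PBRM1, RNF2, SMARCD1, SMARCE1 and UHRF1.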

How the results depend on the processing

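Counts of the 43 genes called in each direction moved by less than 1.5 times with DESeq2, its size factors in edgeR, no filter on low counts and the GC and length offset. Single calls still changed with that offset. It added 7 calls in HSC3 cells and 4 for the difference between the lines. In CAL27 cells it added 2 and ended 1, and in the vehicle comparison it added 2 and ended 4 with the direction kept. With library totals 10 genes were lower in CAL27 cells instead of 6, and 13 instead of 20 were higher in vehicle HSC3 than in vehicle CAL27 cells. With 1 fit of all 12 libraries, 9 were higher and 2 lower in CAL27 cells instead of 15 and 6, and 2 calls were added in HSC3 cells. With a 2-fold rule added, CAL27 cells held 0 higher and 1 lower, HSC3 cells 0 and 0, the difference between the lines 0 and 1, and the vehicle comparison 2 and 3. With each library left out in turn, counts ran from 12 to 17 higher and 3 to 8 lower in CAL27 (3 without DOX replicate b), from 4 to 15 and 7 to 11 in HSC3, from 4 to 7 and 6 to 11 for the difference, and from 18 to 22 and 16 to 19 for vehicle. The HSC3 higher calls were 4 without DOX replicate 3, vehicle replicate 1 or vehicle replicate 2, and 5 without vehicle replicate 3. Ratios of paralogs that did not overlap ran from 16 to 22 of 30. In vehicle cells the direction turned with library totals for TET3 (-0.0745), HDAC1 (-0.156) and KMT2A (-0.0403), and with the GC and length offset for SUZ12 (-0.0744) and RING1 (0.10). The cause was not tested.

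The replicate block could be fitted in HSC3 cells only, since the CAL27 DOX columns carry no sample number. Deviations from the group means correlated at -0.03, 0.05 and -0.01 between same-numbered HSC3 vehicle and DOX libraries, against -0.05 to 0.05 for the other pairs. The numbers thus carried no visible shared deviation, but this cannot tell whether same-numbered cultures were handled together. With the block, 7 of the 43 genes were higher and 8 lower in HSC3 cells, instead of 11 and 9.

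Calls that held under every setting other than the 2-fold rule numbered 10 of 21 in CAL27, 11 of 20 in HSC3, 9 of 13 for the difference and 28 of 39 for vehicle. With 3 libraries per group, calls of small changes near the threshold were often lost when a library was left out. Leaving out a library also leaves fewer libraries for the test, so a lost call does not show that the change came from that library. Levels of RNA say nothing of protein, and genes with overlapping exons are uncertain.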
